A study of Mus musculus with 4 samples.

Results

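The 10 genes examined belong to the pericentral Wnt zone of the liver. They were chosen by symbol from the deposited table: the ligand genes Wnt2 and Rspo3, the receptor gene Lgr5, the Wnt targets Axin2 and Tbx3, and the hepatocyte genes Glul, Oat, Slc1a2, Rhbg and Cyp2e1. All 10 symbols were found, each on 1 row, among 21959 gene IDs, and 9 of them had enough reads to be tested. RNA had been sequenced from 4 livers of wild-type (WT) mice, all with ACLF (acute-on-chronic liver failure), a sudden decline of a liver that is already diseased. The saline group and the baicalein group had 2 livers each. Baicalein is a flavone of Scutellaria root, and saline was its control. No healthy liver was analysed here. The sources used here do not give the strain, sex, age, dose, time of collection or the way ACLF was induced.

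In the liver lobule, blood flows from the portal tract to the central vein, and hepatocytes along this path differ in what they express. Endothelial cells of the central vein and its surroundings secrete Wnt proteins and R-spondin 3, which keep beta-catenin active in the hepatocytes nearest to them. Those pericentral hepatocytes take up ammonia and glutamate and make glutamine, and they hold much of the drug-metabolising machinery. Active beta-catenin works with TCF proteins, which bind DNA at short sequence words.

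For 6 of the 10 genes RefSeq promoter windows (GRCm38.p6) were at hand, each placed at 1 annotated start. The 250 bases before that start were searched on both strands for 4 words bound by TCF proteins. Whether that start is the first of the gene or lies inside the gene was not checked. The first word searched was CTTTGAA, the next was CTTTGAT, another was CTTTGTA, and the last word was CTTTGTT. A word on 1 strand can share end letters with a word on the other, but no window of these genes held more than 1 match. Of the 6 genes, 2 held 1 match each, Slc1a2 and Cyp2e1, against 16.8% of the 27025 genes in the table (14.8% of its 32851 windows). The windows of Glul, Oat, Axin2 and Wnt2 held none of these words. Lgr5, Rspo3, Tbx3 and Rhbg had no entry. The 4 windows printed here are those of the genes that rose with baicalein (Slc1a2, Oat and Wnt2) and of the other gene with a match (Cyp2e1), read 5′ to 3′ on the strand of the gene, with any match in capitals.
Slc1a2 (chr2:102706188-102706437, + strand): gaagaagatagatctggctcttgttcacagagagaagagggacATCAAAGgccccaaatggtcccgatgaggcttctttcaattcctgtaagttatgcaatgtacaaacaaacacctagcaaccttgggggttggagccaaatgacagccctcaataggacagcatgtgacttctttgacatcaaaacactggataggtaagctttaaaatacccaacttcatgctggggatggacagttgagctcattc
Cyp2e1 (chr7:140763569-140763818, + strand): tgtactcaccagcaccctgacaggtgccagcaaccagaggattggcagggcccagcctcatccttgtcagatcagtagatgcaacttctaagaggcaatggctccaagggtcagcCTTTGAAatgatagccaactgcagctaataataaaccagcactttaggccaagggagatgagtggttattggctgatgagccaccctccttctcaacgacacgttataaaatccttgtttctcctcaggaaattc
Oat (chr7:132576399-132576648, - strand): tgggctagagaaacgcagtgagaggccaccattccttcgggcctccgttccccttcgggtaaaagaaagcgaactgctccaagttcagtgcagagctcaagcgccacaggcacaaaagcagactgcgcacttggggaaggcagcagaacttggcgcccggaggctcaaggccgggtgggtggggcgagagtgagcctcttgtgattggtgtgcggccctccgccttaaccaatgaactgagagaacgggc
Wnt2 (chr6:18030446-18030695, - strand): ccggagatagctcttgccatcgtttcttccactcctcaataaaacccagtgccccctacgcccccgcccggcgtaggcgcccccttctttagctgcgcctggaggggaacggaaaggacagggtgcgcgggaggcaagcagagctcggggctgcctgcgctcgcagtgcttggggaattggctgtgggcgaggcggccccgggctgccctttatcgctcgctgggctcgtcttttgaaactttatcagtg
In the Slc1a2 window the word CTTTGAT lies on the opposite strand, beginning 207 bases before the annotated start that follows the window. In the Cyp2e1 window the word CTTTGAA lies on the gene's own strand, 135 bases before the annotated start that follows it. A match describes these letters only and does not show that a factor binds there.

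Library totals were 13976440 to 18731616 counts. The p-values set each group difference against the spread of these samples, estimated with information shared between genes. The labels do not say whether the livers of a group came from separate animals, so that spread may be technical. Genes of the Y chromosome (4 genes) had 820 and 836 counts in the saline livers against 2 and 1 in the baicalein livers, and 15 of 15 female-biased liver genes rose while 14 of 15 male-biased ones fell. For every result given here, the effect of baicalein and that of a sex difference cannot be told apart. Skeletal muscle genes (15 genes) summed to 122125 counts in saline 1 and 45862 in baicalein 2, against 63 in saline 2 and 64 in baicalein 1. So 1 liver of each group carried muscle RNA, and each tested member is also given within pairs of livers. The pair with muscle RNA is baicalein 2 minus saline 1. The pair at or near 0 is baicalein 1 minus saline 2. Clock genes also separated the groups, summing to 403 and 445 CPM (the usual counts-per-million scale, here with TMM-scaled library totals) with saline and 828 and 750 CPM with baicalein. They moved both ways: of 13 tested, 9 rose and 3 fell, with Per3 at 2.615 and Clock at -0.91 on the log2 scale. Time of collection is not given, so a difference in it between the groups cannot be told apart from an effect of baicalein. Bile duct genes summed to 133 CPM in baicalein 2 and to 31.7 to 76.0 CPM in the other livers. Krt19 alone made up 72.3 CPM of the sum in baicalein 2. Of the 6 bile duct genes tested, 0 rose, Spp1 and Sox9 fell and 4 did not pass. The hepatocyte genes were present in every liver, with 77220 to 109341 CPM over 7 genes. Alb, at 53157 to 87778 CPM, made up most of this sum and rose. Of the 7, 1 rose, 1 fell and 5 did not pass, with a median log2 fold change of -0.254.

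Of the 9 tested genes, 3 rose with baicalein at an adjusted p below 0.05 and the other 6 did not pass. Oat, Slc1a2 and Wnt2 all rose to somewhat more than double their saline level. Among all 12657 genes tested, 7.65% were called higher, 7.9% lower and 15.5% in either direction. No member was called lower by edgeR, DESeq2 or limma-voom. At an unadjusted p below 0.05, edgeR had 5 members higher and 1 lower. The groups did not overlap in 8 of the 9, with baicalein above in 7 and below in 1, against 29.7% and 29.5% of all tested genes. The median log2 fold change was 0.34 over the 9 genes and 0.01 over all tested genes.

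**Figure D1:**
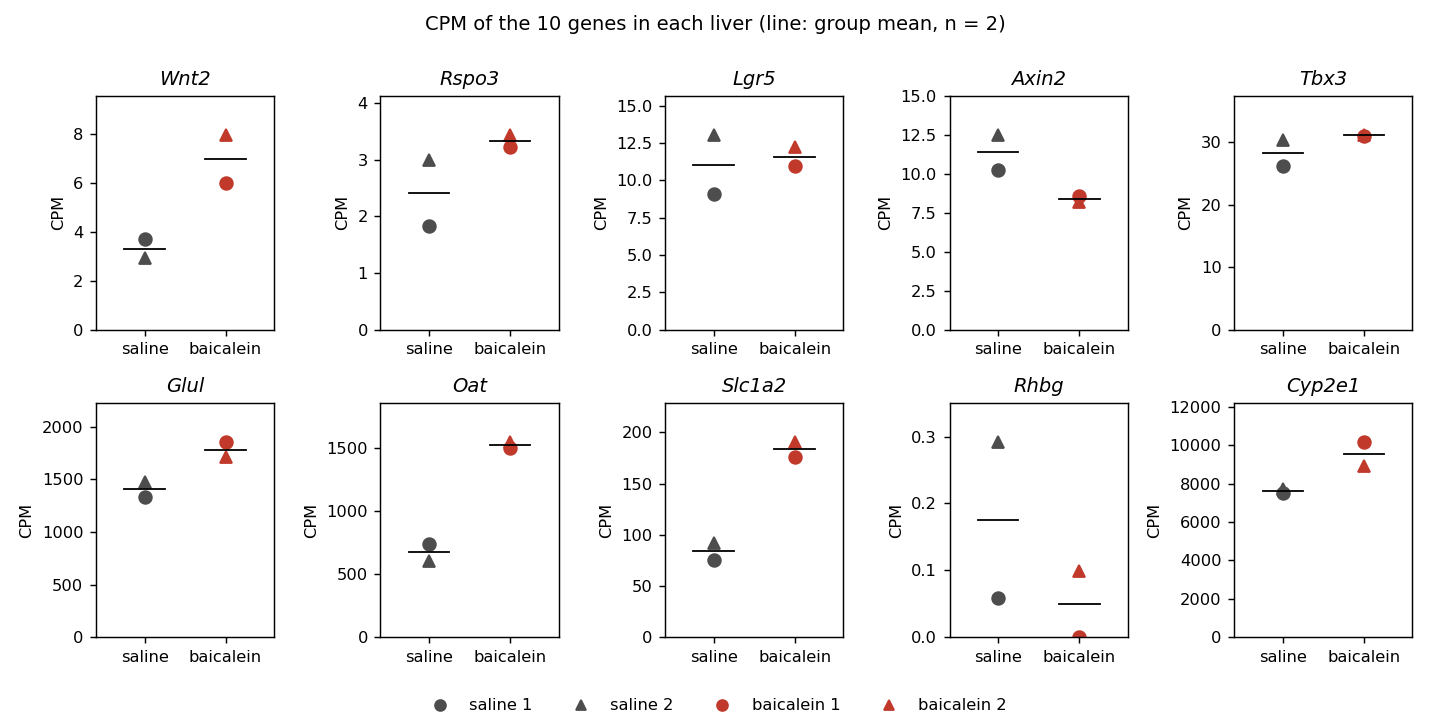
CPM of each of the 10 genes in the 4 livers, from 0, with circles for replicate 1, triangles for replicate 2 and a line at the mean of each group (n = 2). Oat, Slc1a2 and Wnt2 stand clear of saline in both baicalein livers, Lgr5 overlaps, and Axin2 is the 1 tested gene with both baicalein livers below saline.

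Per length, the genes spanned more than 3 orders of magnitude. Deposited FPKM values (fragments scaled by gene length and library total) allow levels to be set beside each other. Cyp2e1 was highest, at 3358 and 3502 FPKM with saline and 4633 and 4412 FPKM with baicalein. Oat and Glul came next and changed places: Oat stood at 301 and 252 FPKM with saline, below Glul at 340 and 384 FPKM, and at 624 and 700 FPKM with baicalein, above Glul at 483 and 485 FPKM. Over the 4 livers the ranges of these neighbours overlap. Slc1a2 followed at 5.55 to 15.5 FPKM and Tbx3 at 3.82 to 5.05 FPKM. Below them Wnt2 (1.27 to 3.79 FPKM), Axin2 (1.54 to 2.24 FPKM), Lgr5 (0.849 to 1.27 FPKM) and Rspo3 (0.568 to 1.19 FPKM) form a group whose neighbouring ranges overlap. Axin2 was above Wnt2 in both saline livers and below it in both baicalein livers. Rhbg was lowest, at 0 to 0.148 FPKM.

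**Figure D2:**
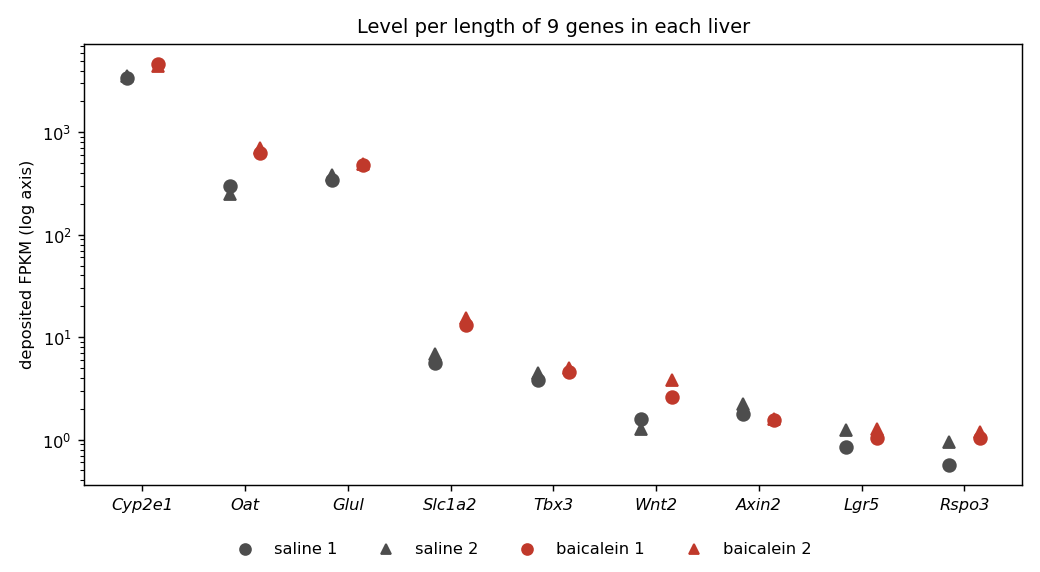
Deposited FPKM of 9 genes in each liver on a log axis, ordered by the mean over livers, with Rhbg (0 to 0.148 FPKM) left out. The order of Oat and Glul, and that of Wnt2 and Axin2, differs between the saline and the baicalein livers.

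Wnt2 (ENSMUSG00000010797, chromosome 6, 17988939 to 18030584 as deposited) encodes a Wnt ligand that liver endothelial cells secrete. It had 63 and 40 counts in the saline livers and 87 and 160 counts in the baicalein livers, or 3.70 and 2.92 CPM against 5.98 and 7.98 CPM. Both baicalein livers lay above both saline livers. The rise was a log2 fold change of 1.07 (SE 0.27, 95% interval 0.46 to 1.69, adjusted p = 0.0287). It was as large in the pair with muscle RNA (1.11) as in the pair at or near 0 (1.04). The call did not hold with any 1 of the 4 livers left out, where the log2 fold change ran from 0.85 to 1.25 and the adjusted p from 0.0659 to 0.211, nor with DESeq2 (adjusted p = 0.0520).

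Rspo3 (ENSMUSG00000019880, chromosome 10, 29328412 to 29411863 as deposited) encodes R-spondin 3, which strengthens Wnt signals by sparing the receptors from removal. Saline livers gave 31 and 41 counts and baicalein livers 47 and 69 counts, that is 1.82 and 2.99 CPM against 3.23 and 3.44 CPM. Saline 2 lay close under baicalein 1, while saline 1 was well below the other 3 livers. The log2 fold change of 0.48 (SE 0.36, 95% interval -0.35 to 1.31, adjusted p = 0.440) did not pass. It was 0.92 in the pair with muscle RNA and 0.11 in the other. The interval holds 0 as well as a change as large as that of Wnt2, and these 4 livers could not tell them apart.

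Of 14 genes for Wnt ligands, their secretion and R-spondins, 10 could be tested. Wnt4 rose beside Wnt2, and the other 8 did not pass. The median log2 fold change was 0.65 over the 10. Baicalein lay above saline without overlap in 6 of them and below in none, against 29.7% and 29.5% of all tested genes. Wnt4, a ligand gene, went from 2.12 and 2.41 CPM to 5.36 and 6.79 CPM (log2 fold change 1.42, SE 0.28, adjusted p = 0.0110). Its call was lost without saline 1 or baicalein 2 (adjusted p up to 0.100). Wnt9b, the other ligand gene of the central vein, was at 1.24 and 1.68 CPM with saline and reached 2.68 and 1.996 CPM in the baicalein livers, and its log2 fold change was 0.68 with SE 0.42 (adjusted p = 0.325). Wnt5a gave 0.96 (SE 0.29, adjusted p = 0.0589). With 1 liver left out, 0 or 1 of these genes passed.

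The levels of the ligand genes were then set beside markers of the cells that make them. In bulk tissue, a change in the number of cells of a type and a change in RNA per cell cannot be told apart. Of 14 sinusoidal endothelial genes, 9 rose and 5 did not pass, and their summed level went from 692 and 587 CPM to 937 and 952 CPM. For every 1000 CPM of these markers there were 5.35 and 4.97 CPM of Wnt2 with saline and 6.39 and 8.39 CPM with baicalein. Wnt2 was thus higher relative to these markers in both baicalein livers, by less than in CPM alone. The same ratio was 2.63 and 5.09 for Rspo3 with saline and 3.45 and 3.62 with baicalein, so its groups overlapped. The count of endothelial genes that rose fell to 3 without saline 2, 4 without baicalein 1 and 6 without baicalein 2.

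Of the 8 other central vein endothelial genes, none passed in edgeR, DESeq2 or at an unadjusted p below 0.05 in edgeR. They summed to 65.4 and 52.1 CPM with saline and 53.8 and 92.0 CPM with baicalein, highest in baicalein 2. Hepatic stellate cells are a further source of Rspo3. Of 14 stellate genes 8 rose, among them Colec10, Dcn, Reln and Lrat. Lrat, which encodes the enzyme that stores vitamin A as ester, went from 5.11 and 7.15 CPM to 39.1 and 27.5 CPM. Without saline 1, saline 2 or baicalein 2 the count was 5. Des and Col1a1, also on that list, followed the 2 livers with muscle RNA: Des had 151 and 101 CPM there and 2.63 and 6.26 CPM in the others. Of 10 genes of Kupffer cells, the resident macrophages, 10 rose, from a sum of 640 and 561 CPM to 1079 and 921 CPM. Of the Kupffer genes, 5 passed without saline 2 or without baicalein 1. The part of these cell markers in the ligand values was not tested.

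**Figure D3:**
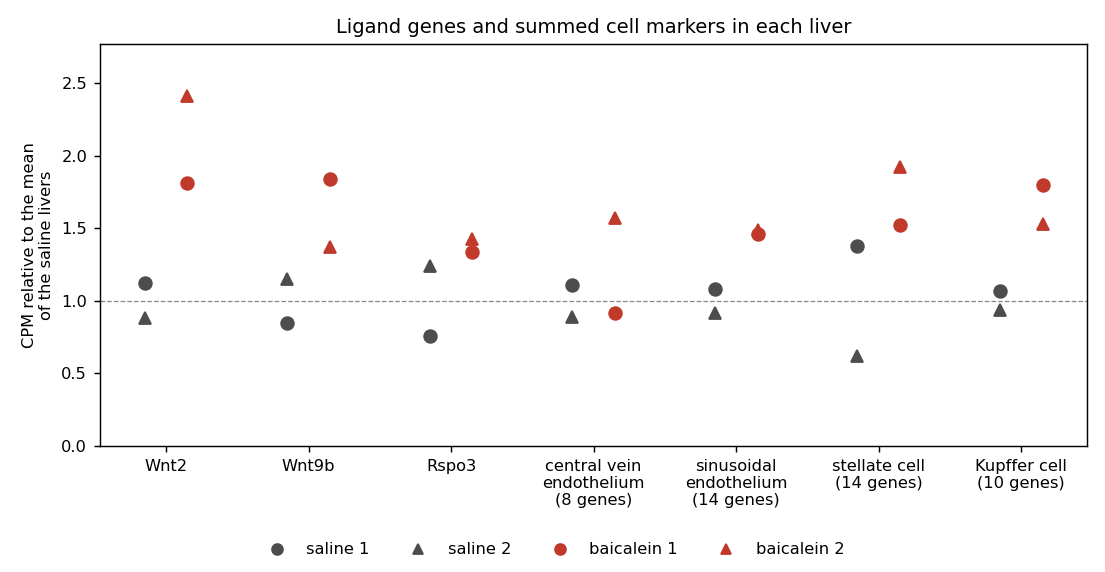
CPM of Wnt2, Wnt9b and Rspo3, and summed CPM of endothelial, stellate and Kupffer cell markers, each divided by the mean of the 2 saline livers, from 0. Wnt2 reaches 1.81 and 2.41 times that mean in the baicalein livers, and the sinusoidal endothelial markers reach 1.46 and 1.49 times.

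Lgr5 (ENSMUSG00000020140, chromosome 10, 115286216 to 115423685 as deposited) encodes a receptor for R-spondins that marks pericentral hepatocytes and is itself a Wnt target. It stood at 9.05 and 13.1 CPM with saline and 10.9 and 12.2 CPM with baicalein (154, 179, 159 and 245 counts). Both baicalein livers fell between the saline livers. The log2 fold change was 0.07 (SE 0.20, 95% interval -0.38 to 0.52, adjusted p = 0.861). It was 0.43 in the pair with muscle RNA and -0.26 in the other, and so had no common direction.

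Among the 11 tested of 14 Wnt receptor genes, Fzd8 rose, Fzd7 fell and 9 did not pass, with a median log2 fold change of 0.02. Both encode Frizzled receptors for Wnt proteins. Fzd8 went from 26.4 and 26.2 CPM to 68.5 and 53.8 CPM (log2 fold change 1.22, SE 0.12, adjusted p = 4.56e-04). Fzd7 went from 48.7 and 43.0 CPM to 30.7 and 27.7 CPM (log2 fold change -0.65, SE 0.11, adjusted p = 0.00434). Both calls held under all 11 alternative settings. The co-receptor genes Lrp5 and Lrp6 gave -0.20 (SE 0.10) and -0.27 (SE 0.09) and did not pass.

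Axin2 (ENSMUSG00000000142, chromosome 11, 108811175 to 108841609 as deposited) encodes a scaffold of the complex that degrades beta-catenin, and as a direct Wnt target it acts as a feedback brake. It was at 10.3 and 12.5 CPM with saline and 8.60 and 8.23 CPM with baicalein (175, 172, 125 and 165 counts). Both baicalein livers lay below both saline livers. The log2 fold change of -0.44 (SE 0.17, 95% interval -0.83 to -0.05, adjusted p = 0.127) did not pass over all genes. It was -0.32 in the pair with muscle RNA and -0.55 in the other.

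Of 16 genes for brakes of the pathway and the destruction complex, 13 were tested, Notum rose and 12 did not pass (median log2 fold change 0.08). Notum, a secreted enzyme that inactivates Wnt proteins and also a Wnt target, went from 10.8 and 12.9 CPM to 22.9 and 19.3 CPM (log2 fold change 0.83, SE 0.15, adjusted p = 0.00676). It lost its call without baicalein 1 (adjusted p = 0.0790). Rnf43, which removes Wnt receptors from the cell surface, gave 0.40 (SE 0.13, adjusted p = 0.0743). Its partner Znrf3 gave 0.17 (SE 0.13). DESeq2 called 2 of the 13 genes, Notum and Dkk3. Dkk3 did not pass in edgeR (adjusted p = 0.168). It was highest in baicalein 2, at 12.4 CPM against 1.605 to 3.78 CPM in the other livers.

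The RNA of Ctnnb1, which encodes beta-catenin, was level across the livers at 161, 161, 160 and 162 CPM (log2 fold change 0.00, SE 0.09). The amount and activity of the protein were not measured here. Of 9 genes for beta-catenin, TCF factors and their co-activators, Bcl9 rose and 8 did not pass (median log2 fold change 0.00). Bcl9, a co-activator of beta-catenin, went from 8.11 and 8.10 CPM to 12.3 and 13.2 CPM (log2 fold change 0.65, SE 0.15, adjusted p = 0.0225). Its call was lost with DESeq2 and with each liver left out, and over the 11 alternatives its adjusted p ran up to 0.146.

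Tbx3 (ENSMUSG00000018604, chromosome 5, 119808734 to 119822789 as deposited) encodes a transcriptional repressor that is a Wnt target in pericentral hepatocytes. It had 26.3 and 30.4 CPM with saline and 31.0 and 31.2 CPM with baicalein. The groups did not overlap, but saline 2 lay within 1 CPM of the baicalein livers. The log2 fold change of 0.14 (SE 0.11, 95% interval -0.12 to 0.40, adjusted p = 0.485) did not pass. It was 0.249 in the pair with muscle RNA and 0.028 in the other.

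Over 16 tested of 17 known Wnt targets of liver, members included, 5 rose and 11 did not pass, with a median log2 fold change of 0.33. Those that rose were Oat, Slc1a2, Notum, Lect2 and Ccnd1. Lect2, which encodes a secreted hepatocyte protein, went from 70.6 and 72.7 CPM to 147 and 139 CPM (log2 fold change 1.00, SE 0.09, adjusted p = 2.54e-04). Ccnd1, encoding cyclin D1, went from 26.4 and 19.4 CPM to 65.7 and 64.9 CPM (log2 fold change 1.51, SE 0.15). Within a liver, Slc1a2 was 7.36 and 7.32 times the CPM of Axin2 with saline and 20.5 and 23.1 times with baicalein. This ratio sets a strong riser against the only tested member lower in both baicalein livers, so it does not describe the targets as a set. Tbx3 and Lgr5 had log2 fold changes of 0.136 and 0.07. With 2 livers a group an exact permutation test of such a ratio cannot pass 0.05, and none was run.

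**Figure D4:**
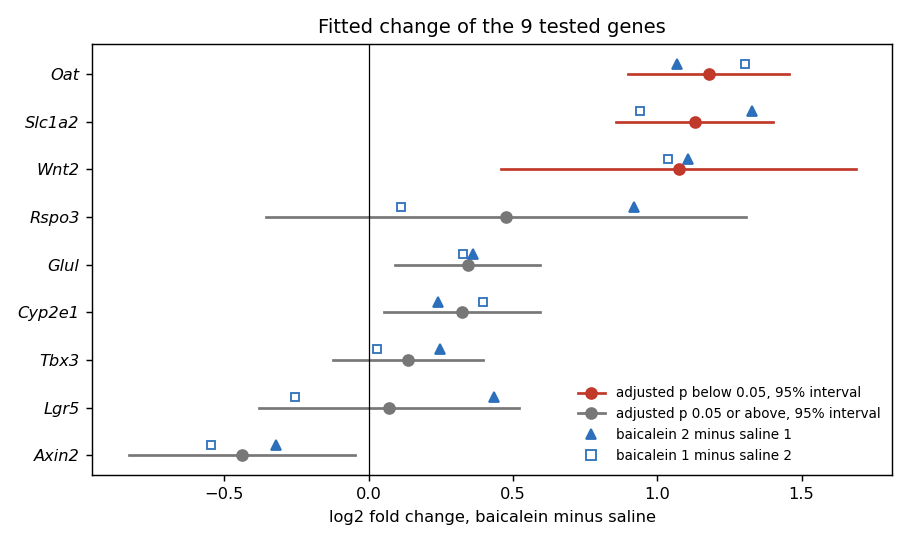
Log2 fold change, baicalein minus saline, of the 9 tested genes with 95% intervals from the edgeR fit (red where the adjusted p was below 0.05), and the difference within each pair of livers (filled triangles with muscle RNA, open squares at or near 0). Oat, Slc1a2 and Wnt2 lie between 0.94 and 1.33 in both pairs, and Lgr5 has opposite signs in the 2 pairs.

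Glul (ENSMUSG00000026473, chromosome 1, 153775690 to 153785469 as deposited) encodes glutamine synthetase, which joins ammonia to glutamate in the innermost ring of hepatocytes round the central vein. It was at 1335 and 1479 CPM with saline and 1855 and 1715 CPM with baicalein, 1407 ± 102 CPM against 1785 ± 98.6 CPM (SD, n = 2 each). Both baicalein livers lay above both saline livers. The log2 fold change of 0.34 (SE 0.11, 95% interval 0.09 to 0.59) just missed the threshold over all genes (adjusted p = 0.0709). It was 0.36 in the pair with muscle RNA and 0.33 in the other. It passed in only 3 of the 11 alternatives, among them DESeq2 (adjusted p = 0.00190). Another was a crosswise block that paired saline 1 with baicalein 2 (edgeR, adjusted p = 0.046). With the replicate number as a block it did not pass (edgeR, adjusted p = 0.167). Over all alternatives the log2 fold change ran from 0.264 to 0.412.

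Among the genes whose profile over the 4 livers was nearest to that of Glul were Kbtbd7, Shroom1, Snrnp70 and P2ry4, at distances of 0.0297 to 0.0390. The measure was the Euclidean distance between centred log2 CPM over 4 livers, among 9385 genes with a mean of at least 5 CPM. Cyp2e1 lay at 0.101, with 102 genes nearer. Tbx3 lay at 0.227, with 945 genes nearer. Oat, Slc1a2, Axin2 and Wnt2 lay at 0.784 to 0.901. This distance grows with the size of a change as well as with its shape, and of these 4 genes only Axin2 was lower with baicalein in both pairs of livers. Distances over 4 libraries describe these libraries alone.

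Oat (ENSMUSG00000030934, chromosome 7, 132159207 to 132178127 as deposited) encodes ornithine aminotransferase, which turns ornithine into a precursor of glutamate and proline. Saline livers gave 12534 and 8313 counts and baicalein livers 21753 and 30930 counts, that is 737 and 606 CPM against 1496 and 1543 CPM. Each baicalein liver was about double the higher saline liver. The rise was a log2 fold change of 1.18 (SE 0.12, 95% interval 0.90 to 1.46, adjusted p = 4.19e-04). It was 1.07 in the pair with muscle RNA and 1.30 in the other, so it was at least as large where muscle counts were at or near 0. The call held under all 11 alternative settings (adjusted p up to 0.0242). Among the tested genes, 7.61% had a larger absolute log2 fold change. Relative to Glul in the same liver, Oat was 0.552 and 0.410 with saline and 0.807 and 0.900 with baicalein. The deposited interval of Oat lies within that of Fgfr2 on the same strand, and Fgfr2 had 679 to 1395 counts.

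Slc1a2 (ENSMUSG00000005089, chromosome 2, 102489004 to 102621129 as deposited) encodes a glutamate transporter, known as GLT-1, that brings glutamate into pericentral hepatocytes. It had 1288 and 1259 counts with saline and 2561 and 3816 counts with baicalein, or 75.7 and 91.8 CPM against 176 and 190 CPM. The lower baicalein liver stood well above the higher saline liver. The rise was a log2 fold change of 1.13 (SE 0.12, 95% interval 0.86 to 1.40, adjusted p = 4.48e-04), with 1.33 in the pair with muscle RNA and 0.94 in the other. The call held under all 11 alternative settings (adjusted p up to 0.00863). Relative to Glul in the same liver, Slc1a2 was 0.0567 and 0.0621 with saline and 0.0950 and 0.111 with baicalein. Both ratios were higher in each baicalein liver than in either saline liver: Oat, on the way to glutamate, and Slc1a2, which imports it, had larger fold changes than Glul, which uses it. This difference between genes was not tested.

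Rhbg (ENSMUSG00000104445, chromosome 3, 88150181 to 88162016 as deposited) encodes an ammonia channel that serves glutamine synthetase in pericentral hepatocytes. It had 1, 4, 0 and 2 counts in saline 1, saline 2, baicalein 1 and baicalein 2. These lie about the floor of 3 counts, which is 0.150 to 0.219 CPM in a library, so no fold is given and no difference was detectable. Of its 11836 bases, 11330 lie within the interval of Gm38392 on the same strand, which had 0 to 1 counts. The sources used here do not say how reads falling in both were counted, and the low level of Rhbg is uncertain for that reason.

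Genes of the same metabolism, from glutamate and glutamine to ammonia and ornithine, were counted next. Of 21 tested among 22, 8 rose and 13 did not pass, with a median log2 fold change of 0.29. Beside Oat and Slc1a2 these were Got1, Slc38a3, Gpt, Prodh, Gls2 and Slc7a2. Got1, the cytosolic aspartate aminotransferase, went from 149 and 141 CPM to 379 and 348 CPM (log2 fold change 1.33, SE 0.10, adjusted p = 7.72e-05). Slc38a3, a glutamine transporter of hepatocytes, gave 0.54 (SE 0.11, adjusted p = 0.0146). Prodh, which breaks down proline, gave 0.64 (SE 0.11). Gls2, the liver glutaminase of periportal hepatocytes, gave 0.48 (SE 0.11, adjusted p = 0.0179). Glud1, glutamate dehydrogenase, gave 0.17 (SE 0.11) and did not pass. Baicalein lay above saline without overlap in 13 of the 21 and below in 4, against 29.7% and 29.5% of all tested genes. Got2 was among those below, at -0.32 (SE 0.10, adjusted p = 0.0734). DESeq2 called 9 of the 21 higher and 3 lower. The count of genes that rose was 4 without saline 1, 3 without saline 2 and 5 without baicalein 1.

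Cyp2e1 (ENSMUSG00000025479, chromosome 7, 140343652 to 140354900 as deposited) encodes the P450 that oxidises ethanol and paracetamol and is among the most abundant pericentral transcripts. It was at 7528 and 7703 CPM with saline and 10152 and 8898 CPM with baicalein, 7616 ± 123 CPM against 9525 ± 886 CPM (SD, n = 2 each). The groups did not overlap, with baicalein 1 the highest liver. The log2 fold change of 0.32 (SE 0.12, 95% interval 0.05 to 0.59, adjusted p = 0.106) did not pass. It was 0.24 in the pair with muscle RNA and 0.40 in the other. It passed with DESeq2 (adjusted p = 0.00436) and without baicalein 2 (adjusted p = 0.00819).

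The 16 other pericentral hepatocyte genes moved both ways: 9 rose, 3 fell and 4 did not pass. Cyp7a1, the rate-limiting enzyme of bile acid synthesis, went from 9.23 and 9.63 CPM to 58.8 and 45.3 CPM (log2 fold change 2.46, SE 0.15). Cyp2a5, a P450 close in sequence to the female-biased Cyp2a4, gave 1.75 (SE 0.11), and its value is uncertain where reads of such copies were shared. Nr1i3, encoding the xenobiotic receptor CAR, gave 1.07 (SE 0.16). Lhpp, Lect2, Slc13a3, Pon1, Ahr and Cyp2c29 also rose. Cyp3a11, Gstm3 and Cyp27a1, enzymes of drug, glutathione and sterol metabolism, fell by 1.31, 0.97 and 0.56 on the log2 scale. Cyp1a2, a P450 that depends on Wnt signals, gave 0.19 (SE 0.11) and did not pass. With the members, 11 of 23 tested rose and 3 fell, and with 1 liver left out 8 to 13 rose.

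Periportal genes gave a like median. Of 21 tested, 10 rose, 5 fell and 6 did not pass, with a median log2 fold change of 0.40 against 0.34 over the 23 pericentral genes. Sds, Ctsc, Arg1, Cps1 and Aldh1b1 were among those that rose, and G6pc, Cyp2f2 and Cdh1 fell most. Cps1, which takes ammonia into the urea cycle, went from 5212 and 5058 CPM to 7905 and 7621 CPM (log2 fold change 0.60, SE 0.11). Cyp2f2, a periportal P450, fell by 1.10 on the log2 scale. Summed pericentral CPM was 1.14 and 1.198 times summed periportal CPM with saline and 1.01 and 0.999 times with baicalein. Cyp2e1 and Cyp3a11, with opposite signs of change, make up most of the pericentral sum. Without saline 1, saline 2 or baicalein 1 the periportal genes that rose were 3, 4 and 5, and those that fell were 3 without saline 2 or baicalein 1 and 2 without baicalein 2.

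**Figure D5:**
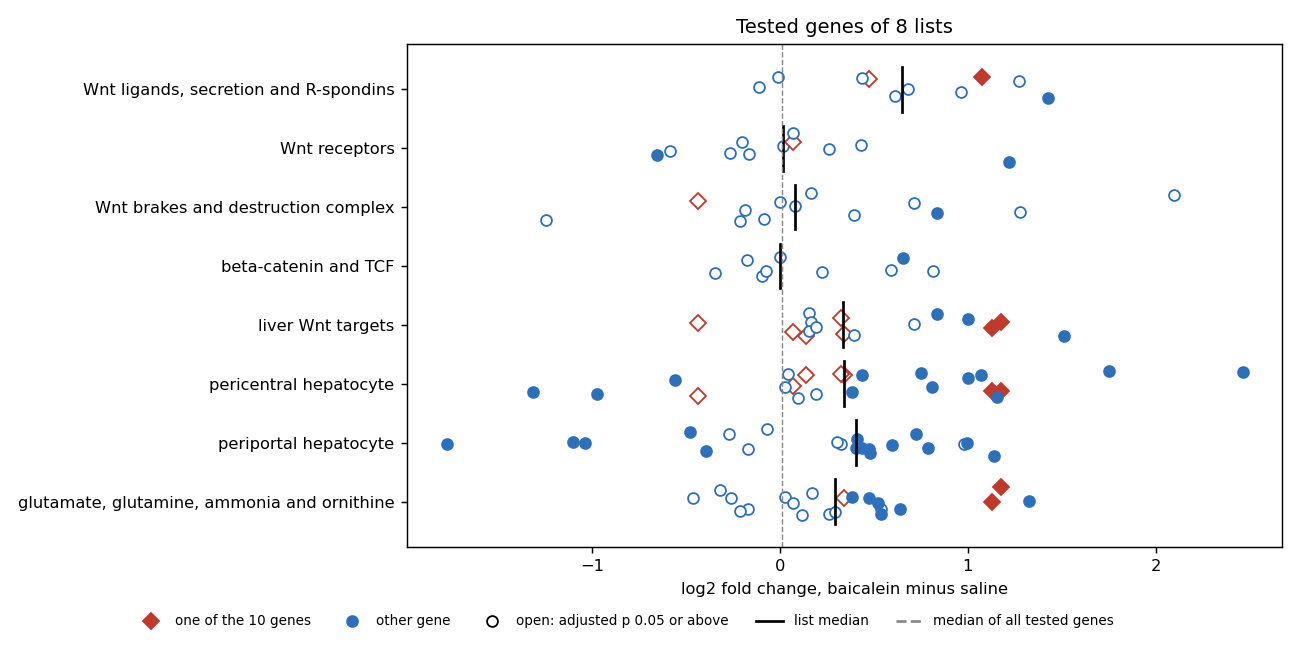
Log2 fold change, baicalein minus saline, of every tested gene of 8 lists (filled where the adjusted p was below 0.05, diamonds for the 10 genes, black lines for list medians, dashed line for the median of all tested genes). The receptor, brake and beta-catenin lists have medians of 0.00 to 0.08, while the pericentral and periportal lists have medians of 0.34 and 0.40 with genes on both sides of 0.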

How the data were processed

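RNA of 4 mouse livers (2 saline, 2 baicalein) had been sequenced from SMARTer mRNA-Seq libraries, per the labels' protocols. The build named in the submitters' processing notes is mm10. Aligner, counter and their versions: not given in the sources used here. Read counts per gene and FPKM values were deposited by the authors, per the file headers. Deposited positions had the same start and end as GENCODE M21 (mm10) for 514 of 21851 shared IDs and for 0 of the 10 genes, so they are printed as deposited, with their build unknown, apart from the GRCm38.p6 promoter windows. For the 10 genes the deposited FPKM matched count, length and library total within 1%. For the 12657 genes kept by filterByExpr, TMM scaling and the robust quasi-likelihood test of edgeR 4.0.16 (R 4.3.3) compared baicalein with saline over the 4 livers (two-sided, no covariate), and p-values were adjusted by Benjamini-Hochberg over all of them (threshold 0.05). The fit's common biological coefficient of variation came to 0.289. CPM values use TMM-scaled library sizes. Library totals put 3 counts at 0.150 to 0.219 CPM, for counting error only. The members, lists and naming rule (all members; from each list, genes past the threshold or among the 3 of smallest p; the 5 genes nearest to Glul, of which 1 is not reported here) were chosen with earlier results of these data known. A few genes beyond that rule were named for their role or place in the pathway, with their values seen. Alternatives were median-of-ratios size factors, DESeq2 1.42.0, limma-voom (limma 3.58.1), other filters, replicate blocks and each liver left out.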

Additional observations from a re-analysis of the deposited data

How the results depend on the processing

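The 3 calls and the directions of the 9 tested members were recomputed under 11 alternatives. Oat and Slc1a2 passed in all 11 and Wnt2 in 5, and 2 to 4 members were higher. The direction of 8 members held in all, and that of Lgr5, which never passed, turned without saline 1 or baicalein 2, its log2 fold change with 1 liver left out running from -0.18 to 0.35. Over all genes, leaving out 1 liver gave 521 to 665 genes higher and 535 to 663 lower, against 968 and 1000, with fewer livers in the fit. With the replicate block, that is the replicate number of the labels as a term, 531 were higher and 601 lower, and 2 members were higher, Wnt2 not passing. The numbers share no stated source, and deviations of saline 1 and baicalein 1 from their group means correlated at -0.77 over genes. Crosswise pairing, added after the muscle counts had been seen, gave 1809 higher and 1689 lower and 4 members higher. The cause of these shifts was not tested. Scalings moved the median of all genes by less than 0.1. Rhbg had at most 4 counts, a level left uncertain by the interval it shares with Gm38392.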
